A study of Mus musculus with 2 samples.

Results

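A set of 10 genes for interleukins and colony-stimulating factors was followed in mouse sarcoma cells silenced for circCsnk1g3, a circular RNA made from exons of Csnk1g3. The 10 genes were Csf1, Csf2, Csf3, Il6, Lif, Il11, Il33, Il34, Tslp and Clcf1, taken by symbol from a table of 25509 genes, and all 10 were found there. The sequenced material was 1 RNA-seq library of cells carrying a hairpin against the backsplice junction of the circRNA (shcircCsnk1g3) and 1 library of cells carrying a control hairpin (shCTR). Both came from C57BL/6 mesenchymal cells that lacked p53, overexpressed Ccne1, had grown as tumors in mice and were recovered from sarcoma foci in the lung before transduction. The p53 loss and the Ccne1 gain were therefore shared by both libraries, and the number of animals or cultures behind each library was not given in the sources used here. With 1 library per condition there was no replicate check, and no p-value was computed. A library stands for a bulk population, in which fewer expressing cells and less RNA per cell cannot be told apart.

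Interleukins and colony-stimulating factors are small secreted proteins through which tissue cells instruct blood cells and each other. Csf1 and Il34 encode the alternative ligands of the macrophage receptor CSF1R, Csf2 encodes GM-CSF, and Csf3 encodes G-CSF, the main growth factor of neutrophils. Il6, Lif, Il11 and Clcf1 encode cytokines of the gp130 family, which all signal through the shared receptor chain gp130 (Il6st), JAK kinases and STAT3. Il33 and Tslp encode alarmins, cytokines of barrier and stromal cells that act on innate lymphoid cells, mast cells and dendritic cells. Sarcoma and fibroblast-like cells are known sources of several of these factors.

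Depth was similar, with 38792143 estimated counts in all for shcircCsnk1g3 and 42709996 for shCTR. Log2 fold changes (silenced minus control) were computed from CPM, a count relative to library size, after TMM scaling (trimmed mean of M-values), with a prior count of 2. A gene passed the filter when either library or both held 10 counts or more, as was so for 12941 genes. Each fold change is followed by its range, the exact interval after Clopper and Pearson (95%) for the count ratio, in which only counting error enters. The half-width of this range was 0.41 on the log2 scale where both libraries had 100 counts of a gene and 1.42 where both had 10. The counts of linear Csnk1g3 were 2159 and 2411, a log2 fold change of -0.05, and a poly(A) library does not measure the circRNA itself. Of 12 mesenchymal markers, 11 passed the filter, with Thy1 at 0 and 1 counts as the exception, and Ly6a was the 1 past 1.5-fold (1854 and 3223 counts). Of 18 leukocyte markers, 15 had at most 3 counts in both libraries, among them Ptprc, Adgre1 and Cd3e, while Cd14 (1844 and 1774 counts) and Cd68 (87 and 155 counts) passed the filter. The 18 summed to 49.5 CPM in the silenced and 45.8 CPM in the control library. Of 8 endothelial markers, 5 had at most 3 counts in both libraries. All 8 summed to 2.63 and 2.27 CPM, most of it from Egfl7 (85 and 68 counts). Of 10 lung epithelial markers, 6 were at 0 in both libraries, including Epcam and Sftpc. All 10 summed to 2.65 and 1.54 CPM, most of it from Krt8 (92 and 46 counts). The part of such cells in the results was not tested.

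The 10 genes fell into abundant and rare ones. Csf1, Lif, Il34 and Clcf1 together held 99.1% of the counts of all 10 in the silenced library and 99.0% in the control library. Csf1 alone held 72.4% and 71.2%. Per kilobase of annotated exon, so that genes can be compared, the control level was 77.7 CPM for Csf1, 22.0 for Il34, 14.6 for Lif and 14.1 for Clcf1. The levels of Il11 (1.23), Csf3 (0.871), Csf2 (0.503) and Il6 (0.478) were far below these, and Il33 had 0.115. Tslp had no count in either library. In the silenced library the levels per kilobase were 72.6 for Csf1, 21.1 for Il34, 13.8 for Lif, 10.7 for Clcf1, 0.870 for Il11, 0.735 for Il6, 0.487 for Csf3, 0.383 for Csf2 and 0.0177 for Il33. The order was thus the same except for Il6, which stood at place 8 in the control library and at place 6 in the silenced library. The counting intervals of Lif and Clcf1 overlapped in the control library, as did those of the neighbours Il11 and Csf3, Csf3 and Csf2, and Csf2 and Il6, so the order within each of these pairs was not resolved there. Those of Csf3 and Il6 did not overlap there, and in the silenced library the neighbours Il11 and Il6, Il6 and Csf3, and Csf3 and Csf2 overlapped. The intervals of Il33 and Tslp overlapped in both libraries.

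**Figure D1:**
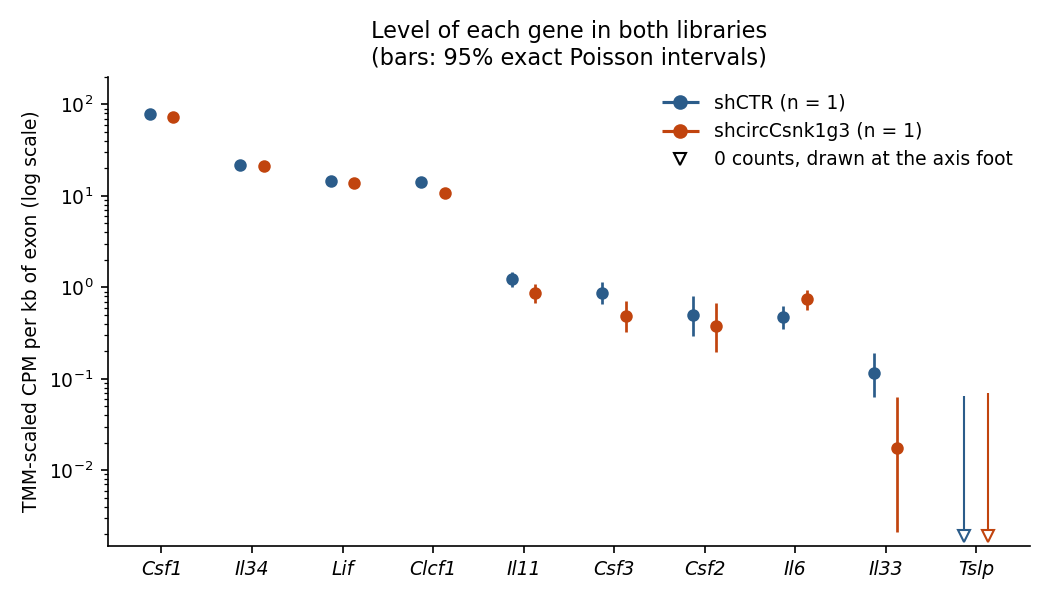
Level of each of the 10 genes in TMM-scaled CPM per kilobase of exon (log scale) in the shCTR library (blue) and the shcircCsnk1g3 library (orange), with 1 library per condition and 95% exact Poisson intervals as bars. Csf1, Il34, Lif and Clcf1 lie above 10 CPM per kilobase in both libraries, the other expressed genes lie near or below 1, and Tslp has 0 counts in both (open triangles, with the upper limit of the interval above them).

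After silencing, 1 of the 9 genes past the filter was higher (Il6) and 8 were lower, with a median log2 fold change of -0.35 against 0.00 for all genes past the filter. The median was -0.10 over the genes with at least 50 summed counts and -0.09 over those with at least 200. None was at least 2-fold higher, where 2.13% of all genes were, and 1 was at least 2-fold lower (Il33), where 2.55% of all genes were. At 1.5-fold, Il6 was the 1 gene higher (5.39% of all genes) and Csf3 and Il33 were the 2 lower (6.31% of all genes). The interval of the log2 fold change lay above 0 for Il6 (26.9% of all genes) and below 0 for 6 genes, Csf1, Csf3, Lif, Il11, Il33 and Clcf1 (28.2% of all genes). For Lif the upper end was -0.00, a ratio of 0.999, and these numbers of intervals were not recomputed under other scalings. Il33 passed the filter only through the control library, so its presence among the lower genes is built into the filter. Without it 7 of 8 genes were lower, with a median of -0.22, and none reached 2-fold. For scale, 12 of 16 housekeeping genes were also lower, 9 of them with an interval below 0, and their median was -0.07.

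**Figure D2:**
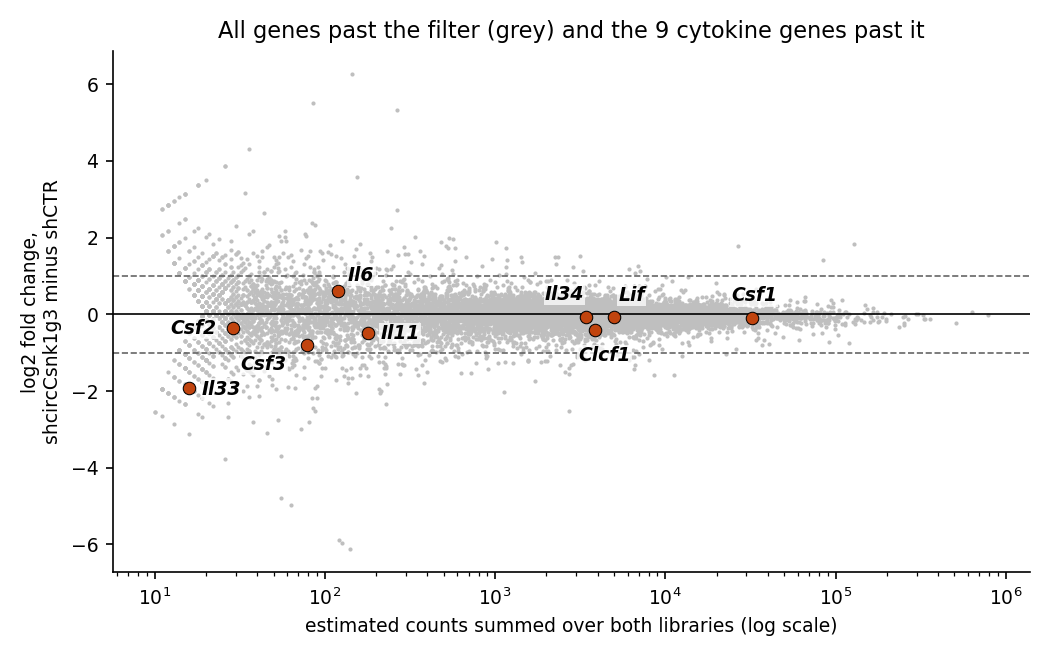
Log2 fold change (shcircCsnk1g3 minus shCTR) against the counts summed over both libraries (log scale) for the 12941 genes past the filter (grey) and the 9 cytokine genes past it (orange, named); dashed lines mark 2-fold. Csf1, Lif and Il34 lie in the dense band near 0, and Clcf1 lies toward its lower edge. Il6, Il11, Csf3, Csf2 and Il33 lie where genes with few counts scatter widely, and Il33 lies beyond the 2-fold line.

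Csf1, the survival and growth factor of macrophages, was the most abundant of the 10 and changed little. Its count was 15038 in the silenced library and 17337 in the control library, 383 and 410 CPM. The log2 fold change was -0.10 (-0.13 to -0.07), a ratio of 0.935, and the interval is narrow because the counts are high. Of the 858 other genes whose summed count was between 0.5 and 2 times that of Csf1, 33.6% were at least as low. Csf1 (ENSMUSG00000014599) is on chromosome 3, minus strand, between 107741048 and 107760469 (GRCm38).

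Il34, whose product binds the same receptor as CSF1, had 1623 counts in the silenced and 1817 in the control library. Its level in the silenced library was 41.4 CPM, and the log2 fold change was -0.06 (-0.15 to 0.04). The interval of Il34 included 0, and with 1 library per condition the spread between replicates is not known. The gene (ENSMUSG00000031750) is on chromosome 8, minus strand, between 110741829 and 110805924 and shares 22 and 75 exon bases with the antisense genes Gm15894 and Gm15895, which were not analysed here. The receptor gene of both ligands, Csf1r, had 2 counts in the silenced and 6 in the control library, and Ptprz1, a further receptor described for IL-34, had 0 in both. Transcripts of both ligands were thus abundant and those of Csf1r nearly absent. Sdc1, a cell surface proteoglycan also described to bind IL-34, was not on the receptor list and was looked up after the other values were seen. It had 3134 counts in the silenced and 4869 in the control library (-0.53, -0.59 to -0.46).

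Csf3 was rare and lower in the silenced library. It had 27 counts there and 52 in the control library, 0.689 and 1.23 CPM, and the counting intervals of these levels overlapped slightly. The log2 fold change was -0.80 (-1.57 to -0.14). Among the 1164 other genes with a summed count within 0.5 to 2 times its own, 12.2% were at least as low. More broadly, of the 2005 genes with 20 to 200 summed counts, 18.7% were at least 1.5-fold lower and 19.1% at least 1.5-fold higher, so changes of this size were common among genes as rare as Csf3 and Il6. Csf3 (ENSMUSG00000038067) is on chromosome 11, plus strand, between 98701263 and 98703629.

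Csf2 had 12 counts in the silenced and 17 in the control library, 0.306 and 0.402 CPM. The log2 fold change was -0.35 (-1.59 to 0.76), so that its direction could not be determined. Csf2 (ENSMUSG00000018916) is on chromosome 11, minus strand, between 54247271 and 54249667 and shares 96 exon bases with the antisense gene Gm12223, not analysed here. The receptor genes Csf2ra, Csf2rb, Csf2rb2 and Csf3r had 0 counts in both libraries. The upper end of the exact Poisson interval of 0 counts is 0.0941 CPM in the silenced and 0.0873 CPM in the control library.

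Il6 was the only one of the 10 that was higher after silencing. IL-6 is an inflammatory cytokine that drives the acute phase response. The gene had 70 counts in the silenced and 49 in the control library, 1.79 and 1.16 CPM, with intervals of 1.39 to 2.26 and 0.858 to 1.53 CPM that overlapped. The log2 fold change was 0.60 (0.07 to 1.18), a ratio of 1.54 (1.05 to 2.26). Of 1194 other genes with a like summed count, 13.8% were at least as high. Il6 (ENSMUSG00000025746) is on chromosome 5, plus strand, between 30013114 and 30019981.

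The gene of the ligand-binding receptor chain, Il6ra, was also higher, and at a much higher count. It had 4635 counts in the silenced and 2994 in the control library, 118 and 70.9 CPM, a log2 fold change of 0.74 (0.67 to 0.80) or a ratio of 1.67. The shared signalling chain Il6st was nearly level, with 6754 and 6950 counts and a log2 fold change of 0.07 (0.02 to 0.11). The 2 intervals do not overlap, so Il6ra was higher relative to Il6st in the silenced library.

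Lif, named for its inhibition of leukemia cells and known for keeping mouse embryonic stem cells undifferentiated, had 2348 counts in the silenced and 2678 in the control library. The levels were 59.9 and 63.4 CPM, with a log2 fold change of -0.08 and a ratio of 0.945 (0.893 to 0.999). Its receptor gene Lifr was higher, with 3459 against 3090 counts and a log2 fold change of 0.27 (0.20 to 0.34). Lif (ENSMUSG00000034394) is on chromosome 11, plus strand, between 4257557 and 4272514.

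Il11, a cytokine of stromal cells with a part in fibrosis, was lower in the silenced library, with 71 counts against 108. The levels were 1.81 and 2.56 CPM, with a log2 fold change of -0.49 (-0.95 to -0.05). Of 1204 other genes with a like summed count, 18.5% were at least as low. Its receptor gene Il11ra1 had 770 and 959 counts, a log2 fold change of -0.21 (-0.35 to -0.07), and the near-identical copy Il11ra2 had 0. RSEM, the program with which the authors counted, divides reads that match both copies, so the split between them is uncertain. Il11 (ENSMUSG00000004371) is on chromosome 7, minus strand, between 4772373 and 4782859. The interval of Il11 lay wholly below 0 and that of Il6 wholly above 0.

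Clcf1 showed the clearest decrease among the abundant genes. It encodes cardiotrophin-like cytokine, which acts through the CNTF receptor, gp130 and LIFR. Clcf1 had 1592 counts in the silenced and 2265 in the control library, 40.6 and 53.6 CPM, and the intervals of these levels (38.6 to 42.6 and 51.4 to 55.9 CPM) were well apart. The log2 fold change was -0.40 (-0.49 to -0.31), a ratio of 0.757. Of 4609 other genes with a like summed count, 4.62% were at least as low. The shares for Lif and Il34, at similar counts, were 31.8% and 36.6%, and the intervals of their log2 fold changes did not overlap that of Clcf1.

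Cntfr, the gene of the CNTF receptor chain, had 0 counts in both libraries. Clcf1 (ENSMUSG00000040663) is on chromosome 19, plus strand, between 4214238 and 4223490. It shares 311 exon bases with AC109138.7, an annotated gene on the same strand that was not analysed here, and the counts cannot tell reads of these shared bases apart.

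**Figure D3:**
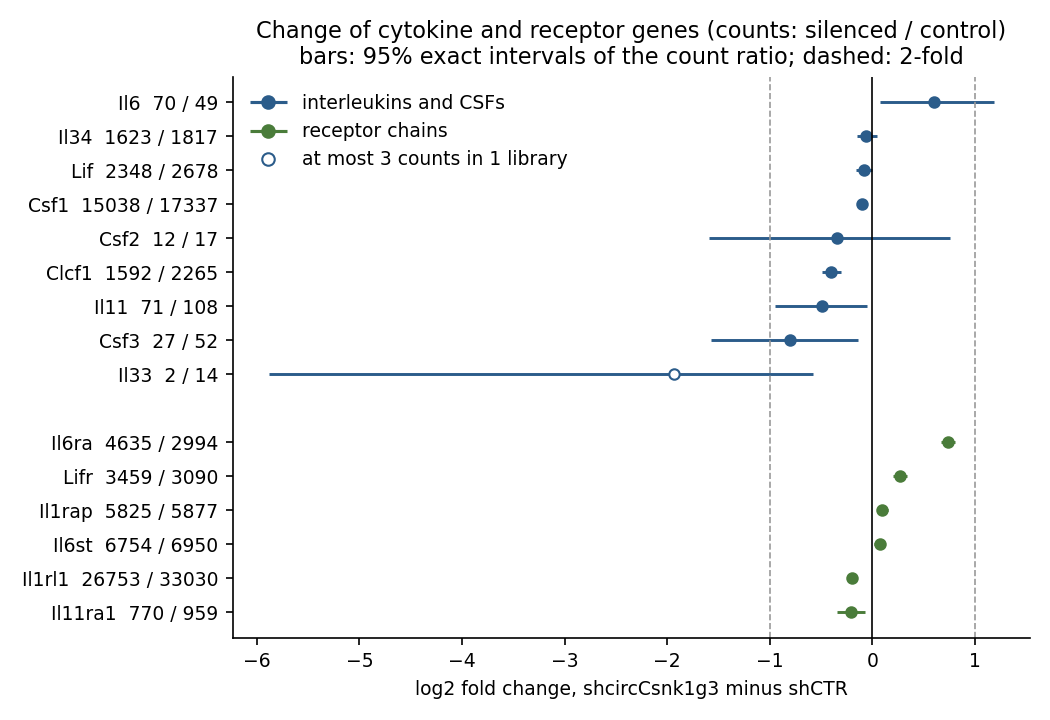
Log2 fold change (shcircCsnk1g3 minus shCTR, 1 library each) of the 9 cytokine genes (blue) and the 6 receptor genes (green) past the filter, with 95% exact intervals of the count ratio as bars, the counts beside each name and dashed lines at 2-fold. Il6 and Il6ra lie to the right of 0, Clcf1 to the left, and the open circle for Il33 marks a gene with at most 3 counts in 1 library.

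Il33, which encodes a nuclear alarmin released by damaged cells, had 2 counts in the silenced and 14 in the control library. The ratio was 0.154 with a counting interval of 0.0170 to 0.670, and the log2 fold change of -1.93 (-5.88 to -0.58) depends on the prior count. Il33 (ENSMUSG00000024810) is on chromosome 19, plus strand, between 29925114 and 29960718.

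The receptor gene for IL-33, Il1rl1, which encodes ST2, was by contrast the most abundant of the receptor genes. It had 26753 counts in the silenced and 33030 in the control library, 682 and 782 CPM, with a log2 fold change of -0.20 (-0.22 to -0.17). Per kilobase its control level of 113 CPM was higher than that of Csf1 (77.7 CPM). Il1rl1 yields a membrane receptor and a secreted decoy, and counts per gene do not tell these forms apart. The co-receptor gene Il1rap had 5825 and 5877 counts, a log2 fold change of 0.09 (0.04 to 0.15). For IL-33 the cells thus carried transcripts of the receptor gene, of either form, and hardly any of the ligand.

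Tslp had 0 counts in both libraries, with upper interval ends of 0.0941 CPM in the silenced and 0.0873 CPM in the control library, so no fold change was given. Of its receptor chains, Crlf2 had 6 and 8 counts and Il7r had 0 in both. In all, 6 of the 16 receptor genes passed the filter, 4 higher and 2 lower, with a median of 0.08. At 1.5-fold 1 was higher (Il6ra), where 5.39% of all genes were, and none lower, where 6.31% were. Of the 16, 8 were at 0 in both libraries.

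Many cytokine messages carry AU-rich elements in the 3' UTR, where ATTTA pentamers (read on the sense strand, written with T) recruit proteins that destroy or protect the RNA. The elements were counted in the longest annotated 3' UTR of each of the 9 genes past the filter, and that of Tslp was not analysed here. Csf2 had 9 pentamers in 317 bases, and 0 of the 985 other genes past the filter with a 3' UTR of like length (the shorter at least 0.8 times the longer) had as many. Il11 had 10 in 1194 bases (0.409% of 1957 genes), Csf3 had 6 in 669 bases (1.42% of 1477 genes) and Il6 had 10 in 1668 bases (1.82% of 2084 genes). Among the abundant genes, Il34 had 1 in 605 bases (56.1% of 1411 genes had as many), Csf1 had 4 in 2111 bases (47.2% of 2036 genes), Lif had 7 in 3180 bases (35.3% of 1616 genes) and Clcf1 had 4 in 922 bases (12.5% of 1792 genes). Il33 had 3 in 1677 bases (50.1% of 2080 genes). Csf2, Il11, Csf3 and Il6 thus had more pentamers than nearly all genes of like length, and Il33 and the abundant genes did not.

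The longer nonamer TTATTTATT, which contains the pentamer, was found in 8.37% of 12263 genes past the filter, and in Csf2 (4 sites), Il11 (5), Lif (2) and Clcf1 (2) among the cytokine genes. For these the stretch of 30 bases with the most pentamers is shown, pentamers in capitals, to show how the pentamers are spaced. The sequences are from GENCODE M21 transcripts on GRCm38, for Csf2 from chr11:54247327-54247356 (minus strand), for Il11 from chr7:4773504-4773533 (minus strand), for Lif from chr11:4272414-4272443 (plus strand) and for Clcf1 from chr19:4223404-4223433 (plus strand).
Csf2: tttaaatATTTATTTATTTATTTATTTAtt
Il11: ttaaaaccagatcttATTTATTTATTTAtt
Clcf1: atATTTATTTAtttggagatgttATTTAtt
Lif: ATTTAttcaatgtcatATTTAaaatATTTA
The stretch of Lif does not include its nonamers. In Csf2 the 5 pentamers of the stretch overlap in 1 run, in Il11 and Clcf1 the stretch holds 3, and in Lif its 3 pentamers stand apart. A match is a description of the letters, not evidence of binding.

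Genes for factors that act on such messages moved in both directions, each by less than 1.5-fold. Of 10 genes for mRNA decay and stability factors, 5 lay above and 5 below 0, with the median at -0.02. The interval lay above 0 for 3 (26.9% of all genes) and below 0 for 2 (28.2% of all genes). Zfp36, which encodes tristetraprolin, had 1145 and 1109 counts (log2 fold change 0.15, 0.03 to 0.27). Zc3h12a, which encodes the nuclease Regnase-1, had 1342 and 1537 counts (-0.09, -0.19 to 0.02). The largest changes in the list were 0.38 (0.34 to 0.43) for Arid5a, whose product is known to stabilise Il6 mRNA, with 10068 and 8313 counts, and -0.38 (-0.48 to -0.28) for Rc3h2, which encodes a Roquin protein, with 1354 and 1900 counts.

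RefSeq promoters (GRCm38.p6) were at hand for Csf1, Csf2, Il6, Il11, Il33 and Lif. The 250 bases before the start were searched on both strands for the NF-kappaB consensus and for further motifs. These were the AP-1 site, spelled TGACTCA, the CRE, spelled TGACGTCA, the C/EBP-ATF site, spelled TGATGCAA, the STAT site known as GAS, spelled TTCNNNGAA, and the TATA box, spelled TATAAA. The NF-kappaB consensus was in 3.90% of 32851 promoters, AP-1 in 4.46%, CRE in 1.55%, C/EBP-ATF in 0.791%, GAS in 7.02% and TATA in 12.4%. The NF-kappaB consensus was found for Il6, 44 bases before the start, and for Csf1, 154 bases before the start on the opposite strand. AP-1 was found for Il6, for Lif and for 1 of the 2 Il11 promoters. TATAAA was found for both Il33 promoters, 203 bases before the start in 1 and 29 bases before it in the other. For Csf2 the RefSeq start lies upstream of the GENCODE gene described above, so the window does not adjoin that gene and no result is given. No match says only that these letters are not in this window. The promoters of Il6 (chr5:30012864-30013113, plus strand), the gene that was higher, and Csf1 (chr3:107760470-107760719, minus strand), the most abundant gene, are shown with matches in capitals, because both hold the NF-kappaB consensus.
Il6: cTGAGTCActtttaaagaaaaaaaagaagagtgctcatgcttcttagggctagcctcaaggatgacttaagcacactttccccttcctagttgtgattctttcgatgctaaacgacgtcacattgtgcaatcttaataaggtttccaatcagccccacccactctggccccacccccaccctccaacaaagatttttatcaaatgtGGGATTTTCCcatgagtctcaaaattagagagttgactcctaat
Csf1: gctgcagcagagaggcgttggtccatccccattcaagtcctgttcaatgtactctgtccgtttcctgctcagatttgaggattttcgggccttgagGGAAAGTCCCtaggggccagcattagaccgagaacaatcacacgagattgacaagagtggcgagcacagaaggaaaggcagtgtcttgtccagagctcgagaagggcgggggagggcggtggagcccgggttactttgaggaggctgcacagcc
In Il6 the AP-1 match TGAGTCA lies at the far end of the window and the NF-kappaB match is close to the start, whereas the single match in Csf1 lies near the middle of the window.

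Among 21 genes for transcription factors that act on cytokine promoters the median was 0.17, with 16 higher and 5 lower. Of all genes past the filter, 6521 were higher and 6420 lower. At 1.5-fold 3 of the 21 were higher (5.39% of all genes) and none lower (6.31% of all genes). These were Fos, an AP-1 subunit, with 319 and 211 counts (log2 fold change 0.70, 0.45 to 0.96), and the stress factors Atf3 (1.22, 1.11 to 1.34) and Ddit3 (1.07, with 4375 and 2242 counts). The NF-kappaB subunit genes Nfkb1 (0.20 and 12876 against 12084 counts) and Rela (0.26 and 3678 against 3318 counts) changed by less than 1.5-fold. The 3 genes with an interval below 0 were Jun (-0.29, -0.33 to -0.26), an AP-1 subunit far more abundant than Fos with 12436 and 16417 counts, Fosl1, also of AP-1 (-0.16, -0.21 to -0.11), and Cebpb (-0.21, -0.30 to -0.12). Cebpd was on the list but was not analysed here.

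Downstream of the gp130 receptors, the median of 12 JAK-STAT and feedback genes was 0.10, with 8 higher and 4 lower. Stat3, the main mediator, was level with 6614 and 6948 counts (0.04, -0.01 to 0.09), and the feedback inhibitor Socs3, induced by IL-6 and LIF, had 2419 and 2280 counts (0.19, 0.11 to 0.28). Socs2, a feedback inhibitor of STAT5 signalling, had 24 counts in the control and 72 in the silenced library, for a log2 fold change of 1.61 (1.01 to 2.42). Cish, a relative with the same role, had 32 and 49 counts (0.69, 0.05 to 1.41). The feedback inhibitor Socs1, in contrast, had 482 counts in the control and 326 in the silenced library (-0.45, -0.66 to -0.25). Of the STAT5 genes, Stat5a was lower, with 773 counts in the control and 544 in the silenced library (-0.40, -0.56 to -0.24), and Stat5b was higher, with 1687 and 1750 counts (0.16, 0.06 to 0.26). Socs2 and Cish were the 2 genes of this list at least 1.5-fold higher (5.39% of all genes), and none was 1.5-fold lower (6.31% of all genes). Both have few counts, and of the genes with 20 to 200 summed counts 19.1% were at least 1.5-fold higher.

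The median of 13 targets of gp130 and STAT3 was 0.06, with 7 higher and 6 lower. Osmr, the receptor chain of oncostatin M, had 479 counts in the control and 226 in the silenced library (-0.97, -1.21 to -0.74). Saa3, an acute phase gene, had 340 counts in the control and 589 in the silenced library (0.90, 0.71 to 1.10). Fgl2 was also past 1.5-fold, with 30 counts in the control and 16 in the silenced library, but its interval included 0 (-1.77 to 0.12). The targets thus moved in both directions in these libraries.

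**Figure D4:**
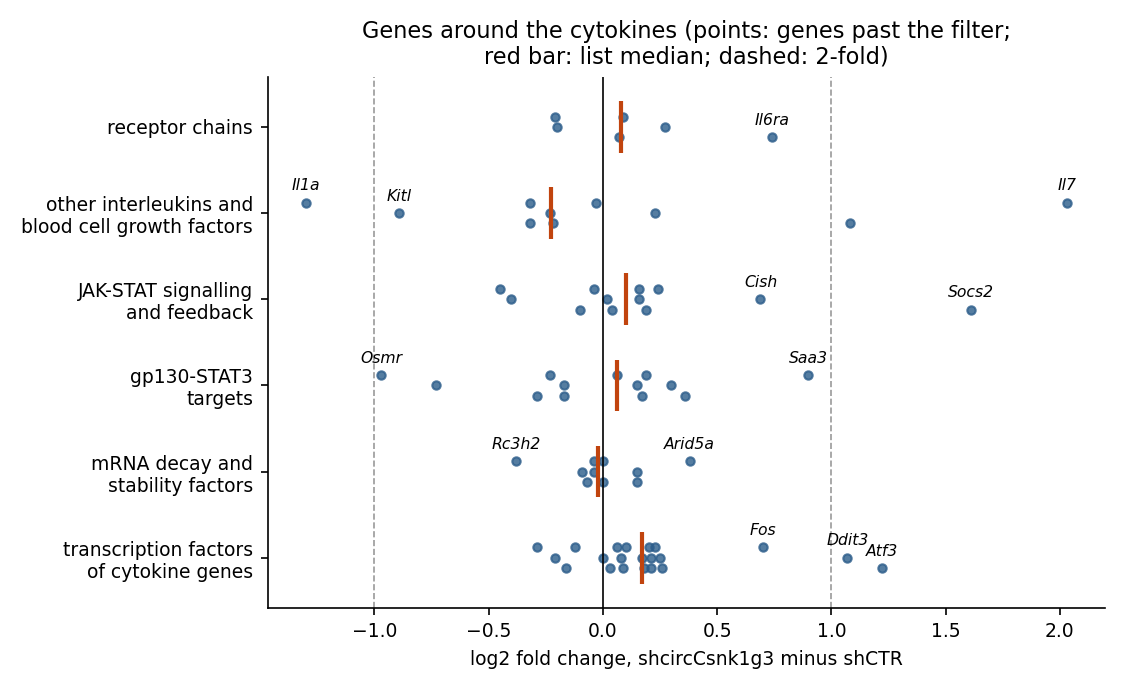
Log2 fold change (shcircCsnk1g3 minus shCTR) of genes past the filter in 6 lists around the cytokines, with 1 point per gene, the list median as a red bar and dashed lines at 2-fold. Medians lie between -0.23 and 0.17, and the named genes Il7, Socs2, Atf3 and Ddit3 lie past 2-fold on the right and Il1a on the left.

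Most other interleukin and blood cell growth factor genes were silent in these cells. Of 44, 25 had 0 counts in both libraries, 29 had at most 3 in both, and 10 passed the filter, 3 higher and 7 lower, with a median of -0.23. With at least 200 summed counts the median was -0.56, but only Il1a, Kitl, Ctf1 and Il16 were left. Il7, a growth factor of lymphocytes, had 63 counts in the silenced and 15 in the control library, with a log2 fold change of 2.03 (1.35 to 3.10), while the gene of its receptor chain, Il7r, had 0. Il1a, an alarmin like Il33, had 77 counts in the silenced and 208 in the control library (-1.30, -1.72 to -0.94). Kitl, the stem cell factor, had 490 and 977 counts (-0.89, -1.05 to -0.73). Thpo was past 2-fold too, with 10 and 4 counts, but its interval included 0 (-0.36 to 3.56). It passed the filter only through the silenced library, so its place among the 3 higher genes is built into the filter. Oncostatin M, the ligand of Osmr, had 0 counts in both libraries, and the gp130 ligands Ctf1 (163 and 207 counts) and Cntf (40 and 44 counts) had intervals that included 0.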

How the data were processed

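Per the labels and the methods of the study, stranded poly(A) libraries were sequenced, and the authors aligned reads to GRCm38 with STAR and estimated counts per gene with RSEM. The authors deposited these estimated counts as whole numbers, with 92 spike-in rows at 0 that were left out. They also deposited TMM-scaled CPM of 11624 genes, by a rule not given in the sources used here. The deposited CPM served only as an alternative.

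TMM factors (1.01 for shcircCsnk1g3 and 0.989 for shCTR) came from edgeR 4.0.16 in R 4.3.3, computed on genes that reached 10 counts in either library. Other steps ran in python 3.11.15 (scipy 1.17.1, pandas 2.3.3, numpy 2.4.6, matplotlib 3.10.9). Exact intervals (95%) cover counting error only, and 3 counts were taken as the floor. Estimated counts were treated as counts, although RSEM divides reads shared between genes. No test between conditions was made. The steps were tested on simulated counts. Gene positions, exon lengths and 3' UTRs are from GENCODE M21, in which all 10 members were found. The authors' GENCODE release was not given in the sources used here.

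Members and lists were chosen with earlier results of these data known, and the sequence searches and the comparisons with genes of like count after the values were seen. Named are all members, every receptor gene past the filter, and genes of the other lists with a change of at least 1.5-fold and an interval without 0. Others were named after their values were seen. A result for 1 gene under this rule was left out. Alternatives were DESeq2 1.42.0 size factors, total counts, prior counts of 0.5 and 10, the deposited CPM, a 1.5-fold or 4-fold threshold, a minimum of 50 or 200 counts over both libraries or none, and the longest transcript as gene length.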

Additional observations from a re-analysis of the deposited data

How the results depend on the processing

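All 44 alternative log2 fold changes of the 9 genes stayed within the gene's own counting interval and kept its sign. Il33 ranged most, from -2.44 (prior count 0.5) to -0.96 (prior count 10). The deposited table held 8 of the 10 genes, without Il33 and Tslp. The 1 gene at least 2-fold lower (Il33) became 0 at prior count 10, in the deposited table, with at least 50 and with at least 200 summed counts, and at 4-fold, and 2 at 1.5-fold, where the number higher went from 0 to 1 (Il6). The median of the genes ranged from -0.38 to -0.09. The median of the receptor list went from 0.08 to -0.07 without the filter, which brings in very rare genes. The median of all genes moved by at most 0.03. Of all genes, 275 were 2-fold higher and 330 lower, which became 150 and 171 at prior count 10, 107 and 168 from the deposited table, 732 and 623 without the filter, 132 and 157 with 50 and 60 and 79 with 200 summed counts, 698 and 817 at 1.5-fold and 49 and 52 at 4-fold. The order of levels was the same with the longest transcript. No paired analysis was possible because each condition had 1 library. Depth limits Csf2, Il33 and Tslp most.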
